A study of Mus musculus with 4 samples.

Results

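The T cell receptor (TCR) complex and the signalling proteins that act directly beneath it were followed through 9 genes. These are Cd3e, Cd3d, Cd3g and Cd247 for the invariant chains, Cd4 for the coreceptor, Lck and Zap70 for the kinases, and Lat and Lcp2 for the adaptors. They were picked by name from 18539 genes that could be named on the array. The rule uses no measured value, but earlier results of these data were known when the genes were chosen. They are covered by 11 probes, of which Cd247 has 3 and each other gene 1.

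RNA came from T helper 2 (Th2) cells grown from splenic CD4 T cells of female C57BL/6J mice, which the study's methods give as 6 to 10 weeks old. The methods name naive CD4 T cells, isolated with a CD4 and CD62L kit, as the starting cells, and the labels do not. No mutation is given for any group, and all shared the same culture: 2 days on anti-TCR-β antibody at 3 µg/ml with anti-CD28 antibody at 1 µg/ml, IL-2 at 2.5 ng/ml and IL-4 at 10 ng/ml, followed by 3 days in both cytokines. The methods add an anti-IFN-γ antibody at 5 µg/ml to the Th2 condition, which the labels do not mention. SH-2251, a small molecule tested as an inhibitor of IL-5-producing Th2 cells, was present throughout in 2 of the 4 conditions and absent in the control conditions. The labels give its dose as 1 µM in the earlier step and 1 mM in the later one, while the study's methods give 100 nM. Within each treatment, cells were left resting or were restimulated with immobilized anti-TCR-β antibody for 4 h, which engages the receptor complex described here. The 4 conditions are therefore resting control, resting SH-2251, restimulated control and restimulated SH-2251. Each was measured on 1 single-colour array, so no comparison has a replicate check and no test is given. How many mice or cultures stand behind an array is not given in the sources used here.

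The αβ TCR has no signalling domain of its own. The CD3 chains and the ζ chain carry tyrosine motifs that the kinase Lck, bound to the tail of CD4 or CD8, phosphorylates once the receptor is engaged. The kinase ZAP-70 docks on these motifs and phosphorylates the membrane adaptor LAT and the cytosolic adaptor SLP-76, encoded by Lcp2. Together these adaptors assemble the enzymes that open calcium, Ras and NF-κB signalling, through which the cytokine genes of Th2 cells are switched on.

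Levels are log2 intensities minus that array's 75th percentile, so that 0 is an intensity of 561, 614, 499 and 583 on the resting control, resting SH-2251, restimulated control and restimulated SH-2251 arrays. A level can be compared between arrays for the same probe but not between genes. The technical SD is the error that the scanner software assigned to the spots, and its median over genes was 0.204 for a difference between 2 arrays. For bright probes such as those of Cd3d and Lck it was 0.144 on every array, so it is nearly a constant and not a measured spread. The SD measured between the spots of Cd4 was smaller, from 0.042 to 0.055. Neither covers the spread between cultures. A gene is said to have risen or fallen where its level differed at least 2-fold. The comparisons of SH-2251 with control and those of restimulated with resting cells use the same 4 arrays, so they are not independent of each other.

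All 11 probes of the 9 genes were well above background on all 4 arrays, and none was saturated. Of the probes on the array, between 56.0% and 56.7% were well above background. The listed markers of Th2 cells were detected, though Ptgdr2 had intensities of only 63.3 to 91.5. All 7 Th2 markers were well above background on every array, with Gata3, the master transcription factor of Th2 cells, at levels of 5.39, 5.22, 5.87 and 5.83. The list was not level between treatments. With SH-2251 the differences of all 7 markers were below 0 in resting cells. There the cytokine genes Il5 and Il13 fell by 3.86 and 1.32 and the transcription factor gene Maf fell by 1.17. In restimulated cells 5 of 7 were below 0, and Il5 fell by 3.01 and Maf by 1.22. Of all genes measured, 42.5% in resting and 42.1% in restimulated cells were above 0, and 2.9% and 2.78% fell at least 2-fold. Of 10 genes listed as responders to TCR engagement, 9 rose at least 2-fold in control cells and 9 in SH-2251 cells, against 7.24% and 7.09% of all genes measured. Nr4a1, an immediate-early gene of TCR signalling, rose by 6.13 in control and 6.17 in SH-2251 cells on the log2 scale. Ifng, a cytokine gene of Th1 cells, rose by 5.92 and 4.74. Within restimulated cells, 2 of the 10 fell with SH-2251, against 2.78% of all genes. They were the cytokine genes Ifng, by 1.64, and Il2, by 1.53. In resting cells 1 of 8 measured fell, against 2.9% of all genes. This was Egr2, an immediate-early gene, which fell by 1.19 there and stood at -0.77 in restimulated cells.

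The upstream sequences of the genes are shown before their values, since 4 of the genes had levels higher by more than the technical SD after restimulation in both treatments and the neighbouring Cd3d and Cd3g did not. Such a difference was common, with 29.4% of all genes higher by more than their technical SD in each treatment. Sequences are those of RefSeq on build GRCm38.p6, the 250 bases before a transcription start, in the direction of transcription. Windows were found for 8 of the 9 genes, 11 in all, and Cd4 had no entry. Capitals mark GGAAA or its complement TTTCC, the core that NFAT factors bind, which also holds the shorter core bound by ETS factors. The genes with higher levels after restimulation are Lcp2 at chr11:34046678-34046927 on the plus strand, Lat at chr7:126369569-126369818 on the minus strand, Zap70 at chr1:36761548-36761797 on the plus strand, the farthest upstream of its 3 starts, and Cd247 at chr1:165788431-165788680 on the plus strand.
Lcp2: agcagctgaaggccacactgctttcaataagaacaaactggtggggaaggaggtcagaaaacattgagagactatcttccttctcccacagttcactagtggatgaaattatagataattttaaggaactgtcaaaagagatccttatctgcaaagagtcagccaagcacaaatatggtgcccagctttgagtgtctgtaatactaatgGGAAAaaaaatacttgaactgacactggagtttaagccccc
Lat: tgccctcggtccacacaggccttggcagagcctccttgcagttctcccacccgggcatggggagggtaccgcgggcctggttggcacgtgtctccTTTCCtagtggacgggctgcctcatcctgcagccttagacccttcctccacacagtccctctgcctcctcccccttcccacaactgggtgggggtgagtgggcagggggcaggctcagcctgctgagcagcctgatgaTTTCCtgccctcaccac
Zap70: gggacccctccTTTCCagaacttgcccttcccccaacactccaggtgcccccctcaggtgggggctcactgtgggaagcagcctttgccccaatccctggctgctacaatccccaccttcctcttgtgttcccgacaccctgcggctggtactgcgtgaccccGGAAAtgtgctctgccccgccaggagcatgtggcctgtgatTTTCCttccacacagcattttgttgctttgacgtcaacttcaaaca
Cd247: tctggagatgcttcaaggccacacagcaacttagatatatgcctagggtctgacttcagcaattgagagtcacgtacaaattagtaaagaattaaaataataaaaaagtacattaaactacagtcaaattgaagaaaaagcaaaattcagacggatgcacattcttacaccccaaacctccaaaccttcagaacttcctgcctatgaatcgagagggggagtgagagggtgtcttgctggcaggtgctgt

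Cd3d at chr9:44981536-44981785 on the plus strand and Cd3g at chr9:44980432-44980681 on the minus strand lie back to back. On the scale used here, neither differed between arrays by more than the technical SD. They are shown for comparison.
Cd3d: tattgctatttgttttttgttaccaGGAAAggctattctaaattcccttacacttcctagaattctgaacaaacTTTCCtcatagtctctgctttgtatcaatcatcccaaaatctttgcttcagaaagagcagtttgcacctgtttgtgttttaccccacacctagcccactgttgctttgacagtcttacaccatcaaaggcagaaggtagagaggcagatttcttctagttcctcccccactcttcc
Cd3g: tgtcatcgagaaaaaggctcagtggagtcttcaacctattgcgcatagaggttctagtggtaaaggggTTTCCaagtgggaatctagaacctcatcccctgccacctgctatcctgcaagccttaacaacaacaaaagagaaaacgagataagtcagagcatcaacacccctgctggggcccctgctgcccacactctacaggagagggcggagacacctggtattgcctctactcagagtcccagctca

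The printed window of Lcp2 held 1 match to GGAAA, that of Lat 2, that of Zap70 3 and that of Cd247 none. The windows at the other starts of Zap70, which are not printed, held none. The windows of Cd3d and Cd3g held 2 and 1. Matches therefore stood in windows of genes with and without higher levels after restimulation. Over all 11 windows of these genes 7 held a match on either strand, and the share among 32851 windows of all genes was 55.6%. The AP-1 motif TGANTCA was in 0 of the 11 windows and in 6.75% of all windows. The E-box CANNTG, a palindrome that several factor families share, was in 10 of 11 and in 66.2%. The Runx motif TGTGGT was in 2 of 11 and in 14.1%. Of the GATA motifs, AGATAA was in 2 of 11 and in 9.99%, and TGATAA in 0 of 11 and in 7.94%. These GATA motifs differ in the opening letter alone. All motifs were searched on both strands, and none of the 6 motifs was used to choose the genes. A match describes the letters in the window and is no measure of binding.

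Among the 9 genes, Lcp2 alone passed the 2-fold threshold in any comparison. It rose in both treatments on restimulation, and Lat, Cd247 and Zap70 had higher levels by less than 2-fold. With SH-2251, no gene of the 9 passed 2-fold in resting or restimulated cells, where 5.16% and 5.43% of all genes measured did. Zap70 showed the largest difference of the 9 with SH-2251, with lower levels in both states. On the scale used here, the CD3 chains Cd3d and Cd3g differed between arrays by less than the technical SD in all 4 comparisons. That did not hold under every other scaling tried.

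**Figure D1:**
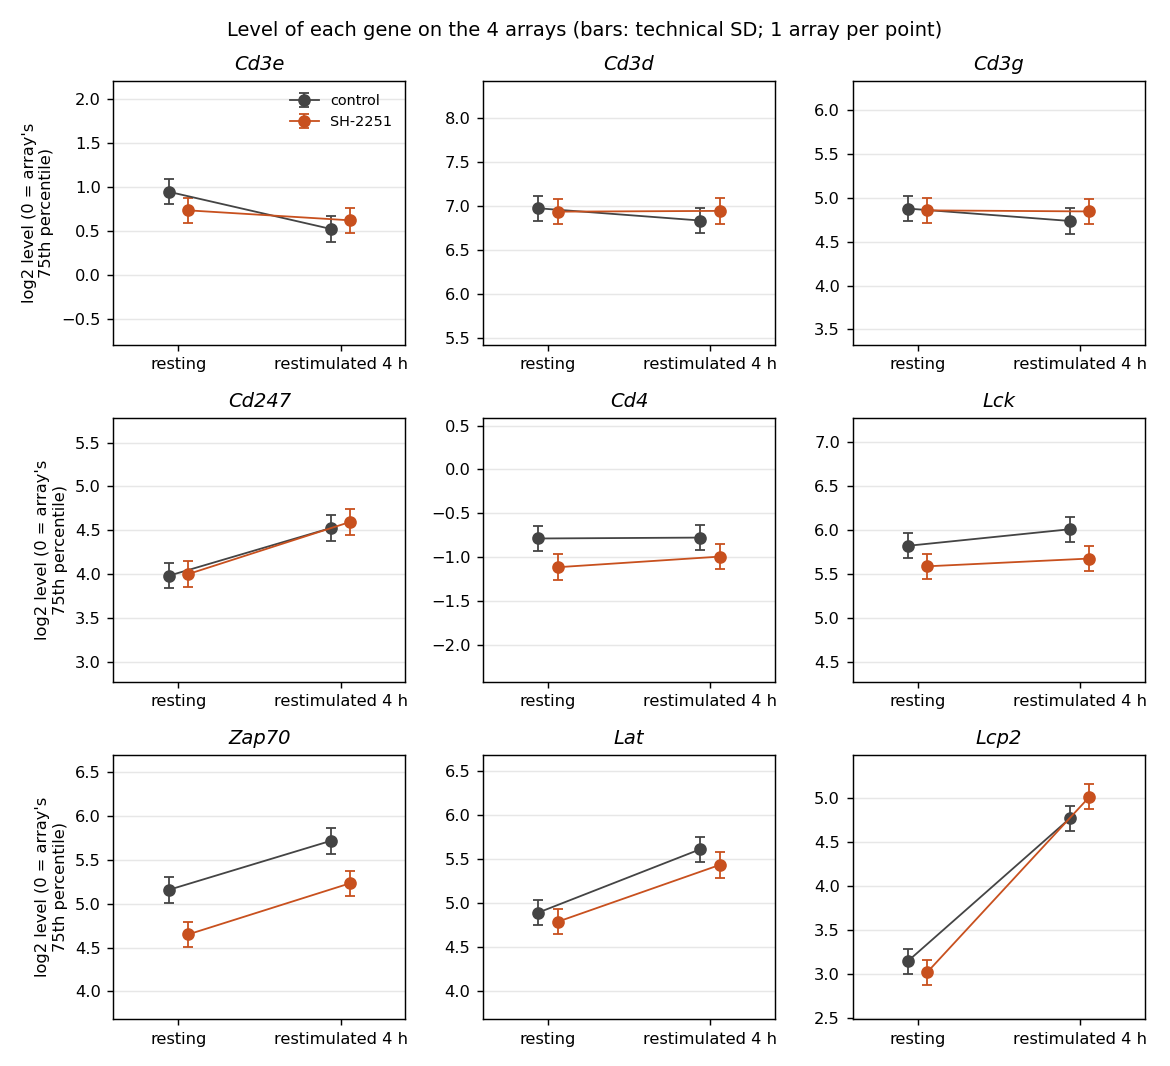
Level of each of the 9 genes (log2, 0 is the 75th percentile of the array) in resting and restimulated cells, with control in grey and SH-2251 in orange. Each point is 1 array, bars are the technical SD assigned by the scanner software, and every panel spans 3 log2 units. Lcp2 rose from 3.14 to 4.77 in control and from 3.02 to 5.01 in SH-2251 cells. The SH-2251 points of Zap70 lie below control in both states, and Cd3d and Cd3g stay level on this scale.

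Cd3d, Cd3g and Cd3e encode the δ, γ and ε chains that pair with one another and hold the TCR at the surface. The level of Cd3d was 6.97 in resting control, 6.93 in resting SH-2251, 6.83 in restimulated control and 6.94 in restimulated SH-2251 cells, with intensities from 56948 to 75157. The level of Cd3g was 4.88, 4.86, 4.73 and 4.84 on the arrays in the same order. Both genes were lowest in restimulated control cells, and neither had a gap between neighbours in the order of levels that exceeded the technical SD. With SH-2251 the differences of Cd3d were -0.038 in resting and 0.11 in restimulated cells, and those of Cd3g were -0.021 and 0.11. Centred on the spike-in RNAs instead, Cd3d and Cd3g were both 0.26 with SH-2251 in restimulated cells, beyond the technical SD of 0.204. On restimulation of control cells they were both -0.27, also beyond it. They were within it in resting cells (0.10 and 0.12) and on restimulation of SH-2251 cells (-0.12 and -0.14). Under quantile normalization Cd3d was -0.30 and -0.27 on restimulation in control and SH-2251 cells, and Cd3g -0.22 and -0.17.

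Cd3e was also lowest in restimulated control cells. Its level was 0.94 in resting control, 0.73 in resting SH-2251, 0.52 in restimulated control and 0.62 in restimulated SH-2251 cells, with intensities of 1080, 1021, 717 and 895. Restimulated minus resting, the difference was -0.42 (technical SD 0.204) in control and -0.11 in SH-2251 cells. The difference in control cells was larger than its technical SD, and 26.1% of all genes were at least as low in that comparison. The difference between these differences was 0.31, with a technical SD of 0.289. With SH-2251, Cd3e stood at -0.21 against control in resting and 0.098 in restimulated cells. In resting cells that lay just beyond the technical SD of 0.204, and in restimulated cells within it.

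Cd247 encodes the ζ chain, the receptor subunit with the most tyrosine motifs. Its brightest probe gave levels of 3.98 in resting control, 4.00 in resting SH-2251, 4.53 in restimulated control and 4.60 in restimulated SH-2251 cells. The restimulated arrays stood 0.52 above the resting ones at the nearest, while the levels within a state differed by 0.019 and 0.070. Restimulated cells were higher by 0.54 in control, or 1.46-fold, and by 0.59 in SH-2251, or 1.51-fold. In these comparisons 16.3% and 14.6% of all genes were at least as high.

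The other probes of Cd247 gave the same direction on restimulation. The middle probe had levels of 1.52, 1.61, 2.03 and 2.05 in resting control, resting SH-2251, restimulated control and restimulated SH-2251 cells, with differences on restimulation of 0.51 in control and 0.44 in SH-2251 cells. The dimmest probe had intensities of only 32.0, 47.6, 41.8 and 51.5 and larger technical SDs, from 0.288 to 0.340. Its differences on restimulation were 0.55 and 0.19, the latter within its technical SD. With SH-2251 the brighter probes stood at 0.019 and 0.094 in resting cells and the dimmest at 0.44, so that only the dimmest probe gave a difference beyond its technical SD there.

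**Figure D2:**
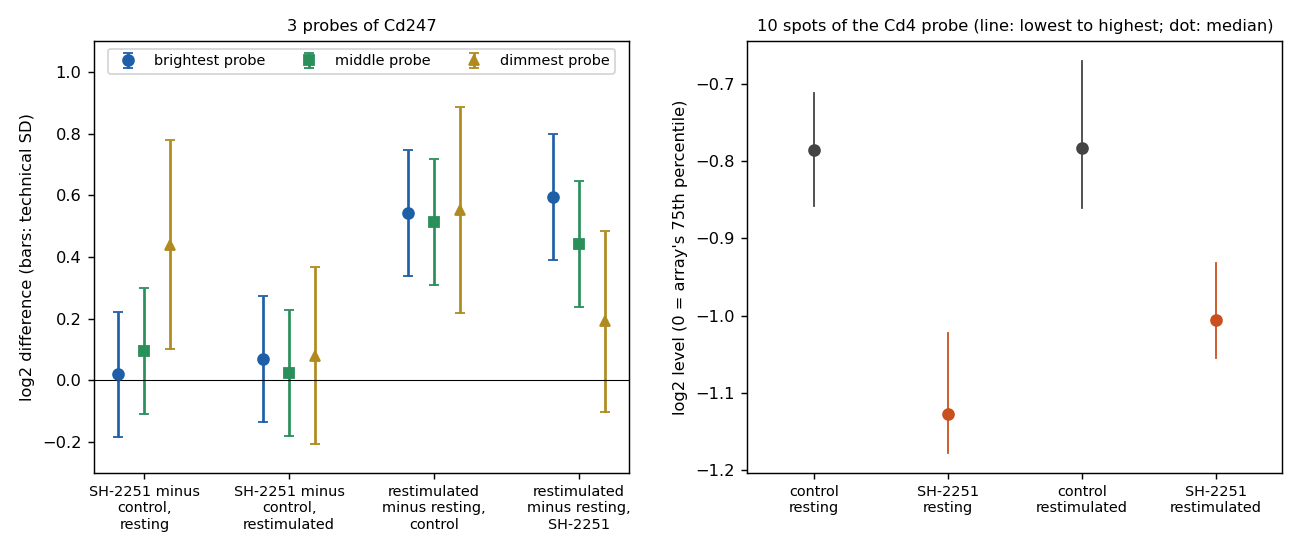
Left, log2 difference of the 3 Cd247 probes in the 4 comparisons, with bars for the technical SD. On restimulation of control cells the probes gave 0.54, 0.51 and 0.55, and the dimmest probe stood apart at 0.44 with SH-2251 in resting cells. Right, log2 level of the 10 spots of the Cd4 probe on each array, as a line from the lowest to the highest spot with a dot at the median. On this scale the spots of the control and SH-2251 arrays do not overlap in either state, but the unscaled intensities of the restimulated arrays do.

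Cd4 encodes the coreceptor that binds MHC class II and brings Lck to the receptor. Its probe was printed in 10 spots on each array. In resting control cells the spots had a lowest, median and highest intensity of 309, 325 and 342, and in resting SH-2251 cells of 272, 281 and 302. In restimulated control cells these values were 275, 290 and 314, and in restimulated SH-2251 cells 281, 290 and 305. The mean levels relative to the 75th percentile were -0.79, -1.11, -0.78 and -0.99 on the 4 arrays in the same order. Before scaling, the restimulated arrays had nearly the same median intensity, and their levels differ because the 75th percentile was 583 on the SH-2251 array and 499 on the control array.

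On the log2 scale the spots of resting control ran from -0.86 to -0.71 and those of resting SH-2251 from -1.18 to -1.02. In restimulated cells the spots ran from -0.86 to -0.67 in control and from -1.05 to -0.93 with SH-2251. After this scaling the spots of control and SH-2251 did not overlap in either state, and the SD between spots was 0.042 to 0.055. Before it, the spots of the restimulated arrays overlapped. Spots share 1 array and are no replicates of a condition. The differences with SH-2251 were -0.33 in resting and -0.22 in restimulated cells, which is 1.25-fold and 1.16-fold lower, against a technical SD of 0.207. Centred on the spike-in RNAs instead of the 75th percentile, they were -0.19 and -0.070, within the technical SD. On restimulation Cd4 differed by 0.010 in control and 0.12 in SH-2251 cells, both within the technical SD. In RNA from a whole culture, fewer CD4-bearing cells and less Cd4 RNA in each cell cannot be told apart.

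Cd8a, which encodes the coreceptor of cytotoxic T cells, moved the other way from Cd4 with SH-2251. Its levels were -3.53 in resting control, -2.07 in resting SH-2251, -2.82 in restimulated control and -1.85 in restimulated SH-2251 cells. Its intensities were only 48.7 and 70.6 in resting and restimulated control cells, and 146 and 162 with SH-2251. It rose by 1.45 with SH-2251 in resting cells and stood 0.97 higher in restimulated cells. Its dimmer probes also stood above 0 with SH-2251 in both states, without being well above background on every array. It was the one marker of CD8 T cells with a named probe. Of 7 B cell markers 5 were well above background on each array, with a summed level of 6.90, 7.38, 6.29 and 8.74 in units of the 75th percentile, and the defining genes Pax5 and Blk were not well above background. Of 4 natural killer cell markers only Klrd1 was above background, with a summed list level from 0.187 to 0.267. Of 7 myeloid markers 4 or 5 were, with a summed level from 2.70 to 3.23, and Lyz2 and Itgam were not. The sums of the CD8 list, 0.0868 and 0.141 in control and 0.237 and 0.277 with SH-2251, were higher with SH-2251 in both states, and so were those of the B cell and natural killer cell lists. Their part in the lower levels of Cd4, Lck and Zap70 was not tested, and both the magnetic sort in the labels and the kit in the methods select CD4 T cells.

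Lck encodes the Src-family kinase that starts phosphorylation of the receptor chains. Its level was 5.82 in resting control, 5.59 in resting SH-2251, 6.01 in restimulated control and 5.68 in restimulated SH-2251 cells. Both SH-2251 arrays lay below both control arrays. Each gap between neighbours in this order was within the technical SD, the largest being 0.19. The differences with SH-2251 were -0.23 in resting and -0.33 in restimulated cells, both beyond the technical SD of 0.204, and 27.3% and 17.9% of all genes were at least as low. Centred on the spike-in RNAs they were -0.092 and -0.19, both within the technical SD. On restimulation the differences were 0.19 and 0.088, within the technical SD.

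Zap70 encodes the Syk-family kinase that docks on the phosphorylated chains. Its level was 5.16 in resting control, 4.65 in resting SH-2251, 5.71 in restimulated control and 5.23 in restimulated SH-2251 cells, with intensities of 19997, 15417, 26221 and 21903. SH-2251 cells were lower in each state and restimulated cells higher in each treatment, so that the resting control and restimulated SH-2251 arrays lay 0.076 apart, within the technical SD. With SH-2251 the level was lower by 1.42-fold in resting cells, a log2 difference of -0.51, and by a log2 difference of -0.48 in restimulated cells. That left 70.4% and 71.6% of the control level.

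These differences were 2.48 and 2.36 times the technical SD. They were within the spread of the genes on the array, since 9.44% of all genes in resting and 10.1% in restimulated cells were at least as low. On restimulation Zap70 was higher by 0.56 in control and 0.58 in SH-2251 cells, the former being 1.47-fold. The difference between these differences was 0.025 against a technical SD of 0.289. Zap70 was thus the one gene of the 9 with differences beyond the technical SD in all 4 comparisons.

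Syk, the relative of Zap70 that serves the B cell and Fc receptors, was measured at levels of -1.15, -1.69, -2.36 and -2.26 in resting control, resting SH-2251, restimulated control and restimulated SH-2251 cells. It fell 2.30-fold on restimulation of control cells, and its difference in SH-2251 cells was -0.57. Syk and Zap70 thus had differences of opposite sign on restimulation in both treatments.

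Lat encodes the membrane adaptor that ZAP-70 phosphorylates. Its level was 4.89 in resting control, 4.78 in resting SH-2251, 5.61 in restimulated control and 5.43 in restimulated SH-2251 cells. The restimulated arrays stood above the resting ones by at least 0.54. The difference on restimulation was 0.72 in control, or 1.65-fold, and 0.65 in SH-2251 cells, or 1.57-fold, 3.54 and 3.17 times the technical SD. Of all genes, 11.8% and 13.1% were at least as high. With SH-2251, Lat stood at -0.10 in resting and -0.18 in restimulated cells, both within the technical SD.

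Lat2, an adaptor of B cells and myeloid cells related to Lat, differed more with SH-2251 than Lat did. Its levels were -0.75 in resting control, -1.76 in resting SH-2251, -0.22 in restimulated control and -1.33 in restimulated SH-2251 cells. It fell by 1.01 with SH-2251 in resting and by 1.11 in restimulated cells, or 2.01-fold and 2.16-fold. The other probe of Lat2 gave -0.86 and -0.96, just short of 2-fold.

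Lcp2 encodes SLP-76, the adaptor that joins LAT to phospholipase C-γ1 and Vav. Its intensity was 4954 in resting control, 4976 in resting SH-2251, 13621 in restimulated control and 18824 in restimulated SH-2251 cells. The levels were 3.14, 3.02, 4.77 and 5.01, and the restimulated arrays stood above the resting ones by at least 1.63. Lcp2 rose by 1.63 in control cells, or 3.09-fold, and by 2.00 in SH-2251 cells, or 3.99-fold. This placed it 361st from the highest of 12758 genes in control and 249th of 12613 in SH-2251 cells, among the top 2.83% and 1.97%. With SH-2251, Lcp2 stood at -0.13 in resting cells and at 0.24 in restimulated cells, the latter just beyond the technical SD of 0.204. The rise in SH-2251 cells exceeded that in control cells by 0.37, against a technical SD of 0.289 for this difference of differences, the largest of the 9 genes.

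The genes whose course over the 4 arrays came closest to that of Lcp2 were sought among 11517 genes well above background on all arrays. Closeness was the root mean square distance between values centred on each gene's mean. The 5 closest were Ggct at 0.0335, Zfp948 at 0.0428, Nfkbie at 0.0607, Qtrt2 at 0.0813 and Nfat5 at 0.0844 on the log2 scale. Nfkbie encodes an inhibitor of NF-κB and Nfat5 a transcription factor of the Rel family. In all, 66 genes lay within 0.2 of Lcp2 over these 4 points, so the pattern was shared by many genes.

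**Figure D3:**
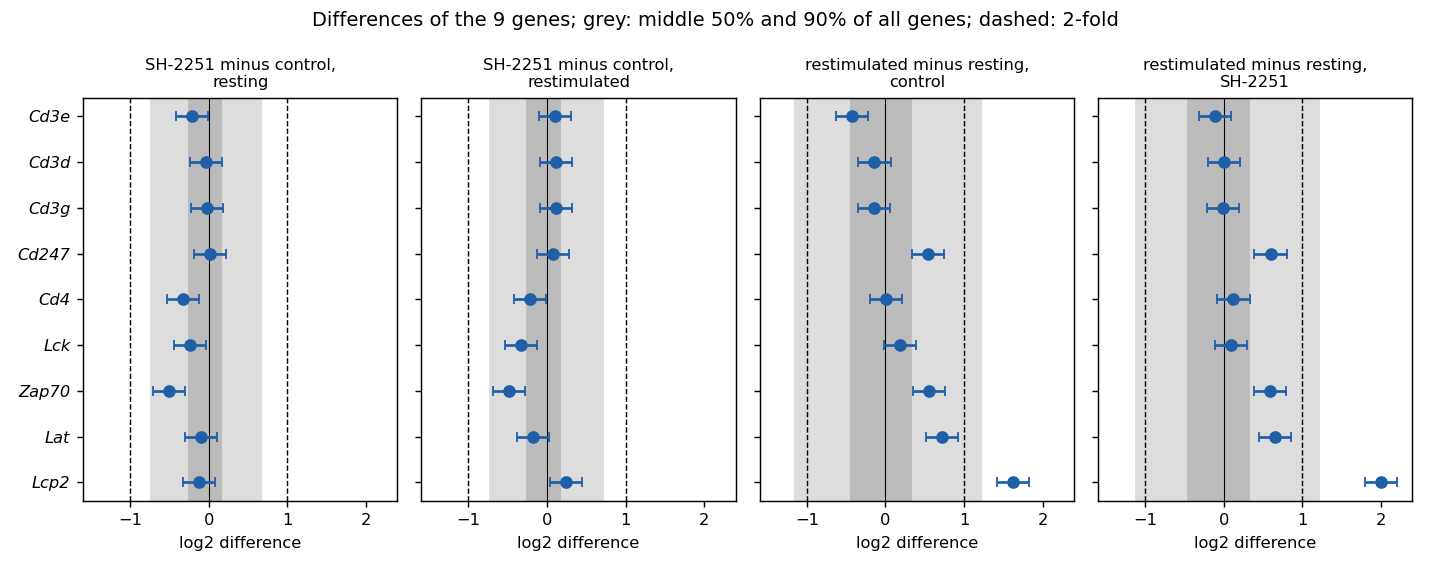
Log2 differences of the 9 genes in the 4 comparisons, with bars for the technical SD. The dark and light grey bands hold the middle 50% and 90% of all genes measured, and dashed lines mark 2-fold. Lcp2, at 1.63 and 2.00 on restimulation, is the one gene outside the dashed lines and the light band, and Zap70 lies lowest with SH-2251 in both states at -0.51 and -0.48.

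By count, 1 of the 9 genes rose at least 2-fold on restimulation in control cells and 1 in SH-2251 cells, both times Lcp2, and none fell. Of all genes 7.24% and 7.09% rose and 7.34% and 6.98% fell, or 14.6% and 14.1% in either direction, so the counts are near the background. At 1.5-fold, Lat joined Lcp2 in control cells, and Lat and Cd247 joined it in SH-2251 cells, where 15.1% and 14.8% of all genes were at least 1.5-fold higher. Above the technical SD were 5 of the 9 genes on restimulation in control cells and 4 in SH-2251 cells, and 4 differed by more than it with SH-2251 in each state. Of all genes, 66.5% and 66.3% did on restimulation and 45.9% and 46.8% with SH-2251, so these counts are at or below the background. Of the 5 in control cells, Cd3e was the one with a lower level.

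The median difference of the 9 genes was 0.19 on restimulation of control and 0.12 of SH-2251 cells, where the median of all genes was -0.064 and -0.051. With SH-2251 the median was -0.13 in resting and 0.070 in restimulated cells, against -0.055 and -0.063 over all genes. In resting cells 8 of the 9 genes had a difference below 0 with SH-2251, as did most genes on the array, of which 42.5% were above 0. In restimulated cells 4 of the 9 were below 0. Centred on the spike-in RNAs instead of the 75th percentile, the median of all genes moved by 0.141 with SH-2251 in resting cells, and Cd3d, Cd3g, Lat and Lcp2 then came out above 0. The same centring moved the median of all genes by 0.147 in restimulated cells, and by -0.131 and -0.126 on restimulation. Under every scaling tried, Zap70, Lck and Cd4 were below 0 in both states. Lcp2, Lat, Zap70 and Cd247 were likewise above 0 on restimulation in both treatments. With spike-in centring the differences of Lck and Cd4 were within the technical SD, and those of Zap70 were -0.37 and -0.34. Lck in resting cells was also within the technical SD under median centring (-0.18) and quantile normalization (-0.10). So was Cd4 in restimulated cells under median centring (-0.17) and normexp (-0.206, technical SD 0.207). Resting Cd4 was -0.040 under normexp but -0.27 with spots of uneven background left out.

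The wider pathway was described by 48 further genes listed by role, 28 that promote and 20 that restrain proximal TCR signalling. Of these 46 had a named probe, and Fyn and Cblb had none. With SH-2251 in resting cells 0 of 46 passed 2-fold, with a median of -0.16 and 32 genes below 0. In restimulated cells 4 fell and 0 rose, and the median was -0.12. Of all genes, 2.9% fell and 2.26% rose in resting cells, and 2.78% fell and 2.65% rose in restimulated cells.

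Of the 4 genes that fell with SH-2251 in restimulated cells, 2 are kinases of the Tec family. Tec had levels of 2.16 in resting control, 1.33 in resting SH-2251, 2.01 in restimulated control and 0.39 in restimulated SH-2251 cells. It fell by 1.61 in restimulated cells, or 3.06-fold, while its difference in resting cells was -0.82. The other probe of Tec gave -1.38 and -0.84. Txk fell by 1.06 in restimulated cells and stood at -0.49 in resting cells. Pstpip1, an adaptor that binds the CD2 tail and the phosphatase PTP-PEST, fell by 1.06, and Ubash3b, a phosphatase that acts on ZAP-70 and Syk, fell by 1.03. In resting cells these stood at -0.93 and -0.70.

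On restimulation 8 of 45 listed genes rose and 3 fell in control cells, and 8 of 46 rose and 5 fell in SH-2251 cells. Of all genes, 7.24% rose and 7.34% fell in the control comparison, and in that of SH-2251 cells 7.09% rose and 6.98% fell. The medians were -0.14 and -0.13. Of the genes that promote signalling, 5 of 27 rose in each treatment and 1 and 2 fell. Of the genes that restrain it, 3 rose in each treatment and 2 of 18 and 3 of 19 fell. Both lists thus held genes that rose and genes that fell.

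Orai1, the pore of the calcium channel that opens after TCR engagement, rose by 1.31 in control and 1.72 in SH-2251 cells. Its levels were 1.20 in resting control, 1.03 in resting SH-2251, 2.51 in restimulated control and 2.75 in restimulated SH-2251 cells, so that both restimulated arrays stood above both resting ones. Malt1 and Bcl10, partners in the complex that carries the signal to NF-κB, rose by 1.17 and 1.15 in control and by 1.64 and 1.06 in SH-2251 cells.

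Among the genes that restrain signalling, Cd5 and Cd6, related receptors that dampen the TCR, rose by 1.10 and 1.33 in control and by 1.46 and 1.41 in SH-2251 cells. Sla rose by 1.59 and 1.40, and the related Sla2 fell by 1.18 and 1.38. Both encode Src-like adaptors that lower receptor levels by way of Cbl, and they moved apart. Pstpip1 fell by 1.02 in control and 1.15 in SH-2251 cells.

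Some genes passed 2-fold in 1 treatment and not in the other, and whether the treatments differ was not tested. Sos1, an exchange factor that activates Ras, rose by 1.47 in control cells and stood at 0.90 in SH-2251 cells, but its other probe gave -0.22 and -0.13, so its probes disagree. Sh2d2a, an adaptor that binds Lck, rose by 1.18 in SH-2251 cells and stood at 0.90 in control. Txk and Lax1, an adaptor related to LAT, both fell by 1.14 in SH-2251 cells and stood at -0.56 and -0.69 in control.

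**Figure D4:**
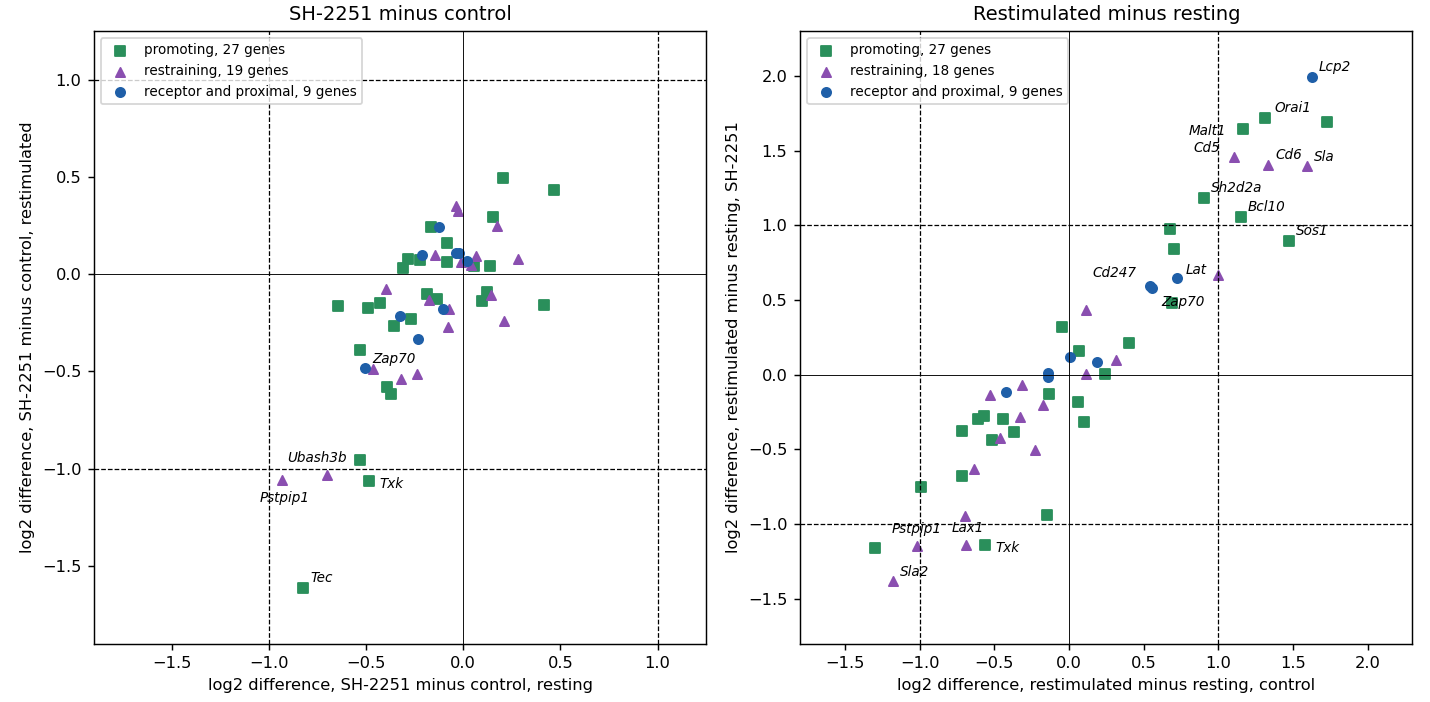
Log2 differences of the 9 genes (circles) and of listed genes that promote (squares) or restrain (triangles) proximal TCR signalling. Left, SH-2251 minus control in resting (x) against restimulated cells (y). Right, restimulated minus resting in control (x) against SH-2251 cells (y). Dashed lines mark 2-fold, and the axes of a panel share no array. On the left Tec lies lowest at -1.61 in restimulated cells and no gene passed 2-fold in resting cells (Pag1, dim in control, is drawn at its bound), and on the right Lcp2 lies with Orai1 and Malt1 at the top. Names are given for genes whose values are in the text.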

How the data were processed

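Gene expression was measured on 4 single-colour Agilent whole mouse genome arrays, 1 per condition, on 1 slide and in 1 scan. The authors deposited scanner files whose processed intensity values Feature Extraction (version 10.7 per the submitters' processing notes) had corrected for background. They also deposited log2 values, which differed from log2 of the scanner intensity by 1 constant per array, within 0.01 for 99.6% to 99.7% of probes. The log2 intensity minus the 75th percentile of each array was used here. Control spots were dropped, as were 77 to 106 outlier spots per array that the software marked, and replicate spots of a probe were averaged. Of 41174 probes 27198 (66.1%) were named through their RefSeq accession and a RefSeq gene table of GRCm38.p6. The arrays were designed on another build, so coordinates are given for the RefSeq windows only. The probe with the highest mean signal stood for a gene.

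A gene was measured where its probe was well above background on 1 of the 2 arrays compared, and the dim side was then set to the lowest level well above background on that array. With 1 array per condition there is no test, and precision is limited by the number of arrays. The genes and lists were chosen with earlier results of these data known. Named were all 9 genes, the listed genes at least 2-fold changed (up to 8 per comparison by size, with some others named after their values were seen and some not reported here), and the 5 patterns closest to the gene of the 9 with the widest range. Alternatives were median centring, quantile normalization, normexp (offset 50), the deposited log2 values, other filters, probes and thresholds and, chosen after seeing the data, spike-in centring and normexp without spots of uneven background. Python 3.11.15, pandas 2.3.3, numpy 2.4.6, R 4.3.3 and limma 3.58.1 were used, and the counting of differences was tested on simulated data.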

Additional observations from a re-analysis of the deposited data

How the results depend on the processing

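The cause of the following shifts was not tested unless stated. No difference of the 9 genes that passed 2-fold changed its sign, and of 360 differences recomputed under 10 alternatives 344 moved by less than the technical SD. Of the other 16, normexp held 15 and quantile normalization 1. Normexp fitted a background mean of -151.7 on the resting SH-2251 array and 7.36 to 8.23 on the others, and with 15 spots of uneven background left out all 36 differences moved by less than the technical SD. Normexp was planned on mean spot signals, but median spot signals were used. Under it the median of the 9 genes was -0.35 with SH-2251 in resting cells and 0.34 on restimulation with SH-2251, where -0.13 and 0.12 were reported. At 1.5-fold, 2 of the 9 genes passed on restimulation of control and 3 of SH-2251 cells in place of 1 each.

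Of the listed pathway genes, 0 passed with SH-2251 in resting cells but 2 under normexp and 4 at 1.5-fold. The 4 in restimulated cells became 2 under quantile normalization, 2 under normexp with or without the uneven spots, 1 at 3-fold and 1 with spike-in centring. On restimulation the 11 in control cells became 23 at 1.5-fold and 2 at 3-fold, and the 13 in SH-2251 cells became 22 and 3.

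Over all genes, 287 rose and 368 fell in resting cells given SH-2251, against 404 and 283 with spike-in centring or 702 and 162 under normexp (123 and 185 without the uneven spots). In restimulated cells 334 and 351 became 457 and 268 with spike-in centring. On restimulation, spike-in centring turned 924 and 937 in control into 740 and 1257, and 894 and 881 in SH-2251 cells into 726 and 1198, and normexp turned the latter into 731 and 1520 (655 and 439 without the uneven spots). Spike-in centring rests on 7 of 10 spike-in probes. No paired analysis was possible because each condition has 1 array, which leaves no replicates to pair. Signal over background limited no probe of the 9 genes except the dimmest of Cd247.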

Other observations

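Probes of some listed genes disagreed, and these genes were chosen after their values were seen. Ptpn2, a phosphatase that acts on Lck and JAK kinases, differed on restimulation by 0.32 in control and 0.10 in SH-2251 cells with its brightest probe, while the other probe gave 1.89 and 2.15. Rasgrp1, an exchange factor that activates Ras, differed on restimulation of control cells by -0.99 with its brightest probe and by -0.37 with the other. Wipf1, a partner of the Wiskott-Aldrich syndrome protein, differed by 0.06 and -0.69 with its probes in the same comparison. Which transcript each probe reads was not analysed here.

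Fcer1g, which can replace the ζ chain in some T cells, had levels of -1.89 in resting control, -2.15 in resting SH-2251, -2.37 in restimulated control and -2.34 in restimulated SH-2251 cells, and no difference passed 2-fold. Blk, a relative of Lck in B cells, had signal that was on none of the 4 arrays well above background. Lyn differed by -0.94 on restimulation of control and by -0.44 of SH-2251 cells with its brightest probe, whose intensity in restimulated control cells was only 42.4. The other probe of Lyn gave -0.51 and -1.04, the latter without being well above background on both arrays.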
